A study of Mus musculus with 4 samples.

Results

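The stress arm of the ATF4 response was followed in IMS32 cells through 10 genes, out of 31093 gene names on the array. They are the transcription factor Atf4, the bZIP factors Atf3, Ddit3 (CHOP), Atf5 and Cebpb, the phosphatase subunit Ppp1r15a (GADD34), the pseudokinase Trib3, the glutathione-degrading enzyme Chac1, and the mTORC1 inhibitors Ddit4 (REDD1) and Sesn2. The genes were chosen by name, and the choice was made with results of these same arrays in view, among them the pyruvate differences given below. All their values are therefore a description of these arrays, and none was tested. IMS32 is a spontaneously immortalized line of adult mouse Schwann cells, so 1 line stands for the cell type. Cells were kept for 1 h in DMEM with 5% fetal bovine serum, which was shared by all 4 conditions. The methods refer the arrays to the conditions of an assay for reactive oxygen species whose medium held the dye CellROX, and they do not say whether the array cultures received it. The conditions were 5 mM glucose with 1 mM pyruvate, called [Glc 5 mM/Pyr (+)], 5 mM glucose with 0 mM pyruvate, called [Glc 5 mM/Pyr (−)], 15 mM glucose with 1 mM pyruvate, called [Glc 15 mM/Pyr (+)], and 15 mM glucose with 0 mM pyruvate, called [Glc 15 mM/Pyr (−)]. Each condition was measured on 1 one-colour array, and the 4 arrays lay on 1 slide. There are no replicates, so no p-values are given and no difference has a replicate check. The question put to the arrays was whether removal of pyruvate changed transcripts at normal and at high glucose.

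ATF4 is translated when the initiation factor eIF2 is phosphorylated by one of its kinases, which respond to amino acid shortage, unfolded protein, double-stranded RNA or heme and mitochondrial stress. Its targets fall into genes that restore amino acids and tRNA charging and genes that slow growth, feed back on the pathway or favour cell death, and the 10 genes belong to the second kind. ATF4 binds DNA as a dimer with C/EBP proteins at composite C/EBP-ATF elements, and related factors bind cyclic AMP response elements.

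The promoters of all 10 members were found in the RefSeq table of GRCm38.p6, each as 300 bases from 250 before to 50 after the transcription start. The sequences upstream of Chac1, Atf3 and Ppp1r15a are shown because they hold the full letters of these elements and because their genes differed 2-fold together at 15 mM glucose. Chac1 is chr2:119350992-119351241 on the + strand, Atf3 is chr1:191183334-191183583 on the − strand and Ppp1r15a is chr7:45526269-45526518 on the − strand, each read 5′ to 3′ along the gene. Capitals mark the C/EBP-ATF element TGATGCAA, here on the opposite strand, in Chac1 and Atf3, and the cyclic AMP response element TGACGTCA in Ppp1r15a.
Chac1: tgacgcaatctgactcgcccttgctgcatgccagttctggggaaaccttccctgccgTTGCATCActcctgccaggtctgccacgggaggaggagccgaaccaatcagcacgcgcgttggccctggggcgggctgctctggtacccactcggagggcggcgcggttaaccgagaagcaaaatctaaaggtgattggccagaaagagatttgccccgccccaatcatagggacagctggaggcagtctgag
Atf3: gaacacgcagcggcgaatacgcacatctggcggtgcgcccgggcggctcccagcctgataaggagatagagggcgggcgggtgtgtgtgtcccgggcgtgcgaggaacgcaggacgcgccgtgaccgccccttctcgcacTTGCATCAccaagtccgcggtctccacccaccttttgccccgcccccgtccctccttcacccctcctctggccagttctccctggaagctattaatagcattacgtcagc
Ppp1r15a: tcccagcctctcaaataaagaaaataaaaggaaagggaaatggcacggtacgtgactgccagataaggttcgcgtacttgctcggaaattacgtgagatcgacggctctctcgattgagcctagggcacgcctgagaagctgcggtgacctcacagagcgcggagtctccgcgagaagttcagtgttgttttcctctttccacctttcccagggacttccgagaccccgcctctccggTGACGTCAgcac
On either strand, TGATGCAA was present in the promoters of 2 members and in 0.895% of 32851 promoters of the table. It began 193 bases upstream of the start in Chac1 and 110 bases upstream in Atf3. The looser TGATGNAA, which includes TGATGCAA, was present in 3 members, with Trib3 added at base 15 of the transcript, and in 3.97% of all promoters. TGACGTCA was present only in Ppp1r15a among the members, 12 bases upstream of the start, and in 1.79% of all promoters. Its shorter core TGACG, which TGACGTCA contains, was present in 6 members, namely Atf4, Atf3, Ppp1r15a, Chac1, Trib3 and Cebpb, and in 20.8% of all promoters. The AP-1 element TGANTCA was present in Ddit3, 242 bases upstream, and in 7.81% of all promoters. The ER stress element was found in none of the members and in 0.119% of all promoters. None of these letters were found in the windows of Ddit4, Sesn2 and Atf5, which says nothing about sites outside them. A match is a description of the letters and not a binding site.

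The members were read by 11 probes, with 2 for Atf4 and 1 for each of the others. Each probe was printed once per array, was well above background on all 4 arrays and carried no outlier flag. Probes were positioned in mm9 by the array design, except that of Ddit3, for which no position is given. The Ddit3 probe starts at base 288 of its transcript and is shown to identify what was measured, with no letters capitalized.
Ddit3 probe: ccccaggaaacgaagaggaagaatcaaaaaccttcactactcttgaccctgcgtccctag
Levels below are scanner intensities after background correction, and differences are between log2 intensities after division by the 75th percentile of each array, which was 1788, 1740, 1597 and 1632 in the order of conditions above. The ± value is the scanner software's own error estimate of a spot, combined over both arrays. It covers error within an array only, leaves out variation between cultures, and was 0.20 on the log2 scale for every member except Atf4, whose 2 probes gave 0.14. A difference is called beyond error here when it is more than 2 such errors. Since the error is the same for all members with 1 probe, this acts as a fixed cutoff. The lower error of Atf4 takes its 2 probes as independent. Of 39429 probes, 28470 to 30344 were well above background on an array and no spot was saturated. Among 399 probes printed 10 times, the median SD between spots was 0.07 to 0.08.

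Without pyruvate all 10 members had higher measured levels at both glucose concentrations, except that Atf5 and Cebpb changed sign at 5 mM glucose when scaled to the spike-in controls. The differences were greater at 15 mM glucose for 9 of them. Over all genes the difference between the pyruvate differences had a median of 0.06, also above 0. The share of all genes was not taken for these counts of sign. At 15 mM glucose 5 members were at least 2-fold higher without pyruvate, namely Ddit3, Ppp1r15a, Ddit4, Chac1 and Atf3. This compares with 3.45% of 23417 genes measured in that comparison. At the 1.5-fold threshold 8 members were higher, against 6.22% of genes. At 5 mM glucose 0 members reached 2-fold, against 1.61% of 24313 genes, and 0 reached 1.5-fold, against 2.90%. The median log2 difference of the members was 0.44 at 5 mM and 0.99 at 15 mM glucose, and the medians of all genes were -0.02 and 0.03. In 9 of the members both Pyr (−) arrays lay above both Pyr (+) arrays, as they did in 14.1% of 24752 genes. These shares are read as background only, since the genes were chosen with this contrast known.

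**Figure D1:**
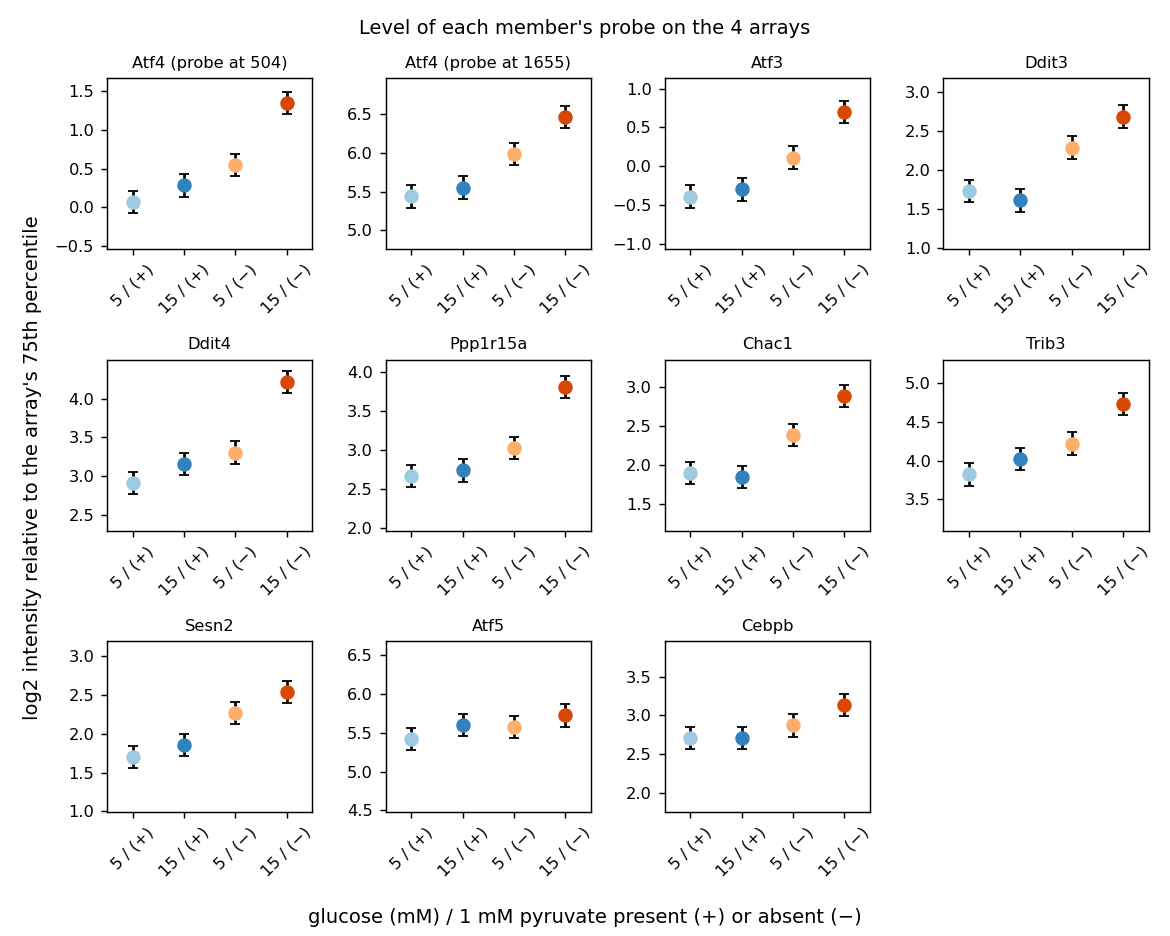
Levels of the 11 probes of the 10 members, as log2 intensity relative to the 75th percentile of each array, in the 4 conditions with 1 array each. Bars are the error within an array, each panel spans the same range, and [Glc 15 mM/Pyr (−)] is the highest point in every panel. The 2 Pyr (+) points lie within 2 combined errors of each other. For Ddit4, Trib3 and Atf5 they are farther apart than [Glc 5 mM/Pyr (−)] is from the nearer of them.

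Atf4 itself, the factor the response is named for, was measured with a probe starting at base 504 of its transcript (chr15:80086639-80086698) and one starting at base 1655 (chr15:80087902-80087961). In the order 5 mM glucose with and without pyruvate, then 15 mM glucose with and without pyruvate, which is kept for every gene below, the first probe gave intensities of 1879, 2545, 1946 and 4137. The second gave 77467, 109869, 74885 and 143728. Both probes placed [Glc 15 mM/Pyr (−)] highest, [Glc 5 mM/Pyr (−)] next and the Pyr (+) arrays lowest. Averaged over both, the pyruvate difference was 0.51 ± 0.14 at 5 mM and 0.98 ± 0.14 at 15 mM glucose, or 1.42-fold and 1.98-fold. The probes differed at 15 mM glucose, with 1.06 for the first and 0.91 for the second, so that Atf4 lay on either side of 2-fold depending on the probe. ATF4 is regulated to a large part at translation, and its protein was not measured on these arrays.

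Among the bZIP factors, Atf3, an early stress-induced repressor (chr1:192994547-192994606), had intensities of 1364, 1880, 1299 and 2653 in the same order of conditions. At 5 mM glucose it differed by 0.50 ± 0.20, and at 15 mM by 1.00 ± 0.20, which put it on the 2-fold threshold. Ddit3, whose product CHOP promotes cell death under prolonged stress, had 5939, 8511, 4878 and 10531. It had the greatest difference of the members at 15 mM glucose, 1.08 ± 0.20 or 2.11-fold, and 0.56 ± 0.20 or 1.47-fold at 5 mM glucose. For Ddit3 the gap between the 2 Pyr (−) arrays, 0.40, did not exceed 2 errors, while both stood clear of both Pyr (+) arrays. Scaled to the spike-in controls, its difference at 5 mM glucose was 0.36, which did not exceed 2 errors.

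Cebpb, a C/EBP partner of ATF4 and CHOP (chr2:167515828-167515887), had 11699, 12724, 10429 and 14291. Its order was the same, but no neighbouring arrays in it differed beyond error, and its differences were 0.16 ± 0.20 and 0.42 ± 0.20. Atf5, which like ATF4 is controlled by upstream reading frames (chr7:52067627-52067686), had 76379, 82685, 77391 and 86250. Its differences of 0.15 ± 0.20 and 0.13 ± 0.20 were within error at both glucose concentrations.

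The growth-restraining members differed among themselves in how far glucose mattered. Ddit4, whose product REDD1 restrains mTORC1 through the TSC complex (chr10:59412486-59412545), had 13498, 17203, 14269 and 30299. The [Glc 15 mM/Pyr (−)] array alone stood apart, with a pyruvate difference of 1.06 ± 0.20 at 15 mM and 0.39 ± 0.20 at 5 mM glucose. Sesn2, a leucine sensor that restrains mTORC1 through the GATOR complexes (chr4:132048858-132048917), had 5820, 8405, 5772 and 9486. Its differences were 0.57 ± 0.20 at 5 mM, the greatest of the members there, and 0.69 ± 0.20 at 15 mM glucose. The 2 Pyr (−) arrays of Sesn2 did not differ beyond error, and both lay above both Pyr (+) arrays. The log2 difference at 5 mM glucose was 83.0% of that at 15 mM for Sesn2 and 36.9% for Ddit4.

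The remaining members are a phosphatase subunit, a pseudokinase and an enzyme. Ppp1r15a, which directs protein phosphatase 1 to eIF2 and so restores translation (chr7:52778320-52778379), had 11321, 14190, 10646 and 22912. Its difference was 1.08 ± 0.20 at 15 mM and 0.37 ± 0.20 at 5 mM glucose, and only [Glc 15 mM/Pyr (−)] stood apart from its neighbour in the order. Trib3, a pseudokinase that binds ATF4 and AKT (chr2:152163161-152163220), had 25283, 32366, 25963 and 43165. Its differences were 0.40 ± 0.20 and 0.70 ± 0.20, and again only the highest array was separated from the next. For Trib3 this separation was within error when scaled to the spike-in controls. Chac1, which breaks down glutathione in the cytosol (chr2:119179990-119180049), had 6651, 9115, 5728 and 12089. Both steps of its order exceeded 2 errors, first between the Pyr (−) arrays and then down to the Pyr (+) arrays, and its differences were 0.49 ± 0.20 and 1.05 ± 0.20. Scaled to the spike-in controls, these steps were 0.27 and 0.30, and neither exceeded 2 errors.

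**Figure D2:**
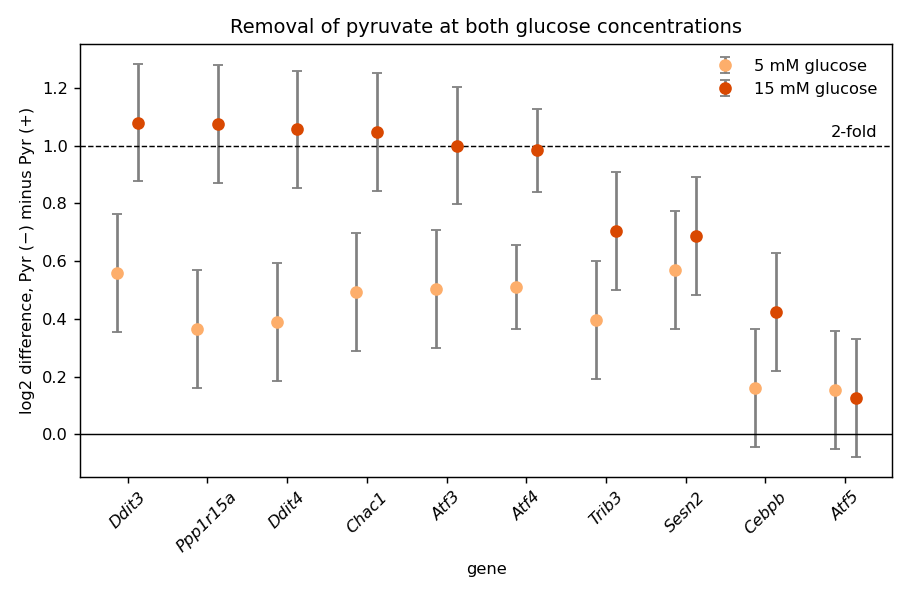
Log2 difference Pyr (−) minus Pyr (+) of the 10 members at 5 mM (light) and 15 mM glucose (dark), with the combined error within arrays as bars and 2-fold as a dashed line. Ddit3, Ppp1r15a, Ddit4, Chac1 and Atf3 reach the line at 15 mM glucose, Atf4 lies just under it, and no member reaches it at 5 mM.

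Across the members, the top of the order was shared and the bottom was not resolved. [Glc 15 mM/Pyr (−)] was the highest array for all 10, and it exceeded the next array beyond error for 6 of them, Atf4, Atf3, Ddit4, Ppp1r15a, Chac1 and Trib3, or for 3, Atf4, Ddit4 and Ppp1r15a, when scaled to the spike-in controls. The next array was [Glc 5 mM/Pyr (−)] for 9, and for Atf5 it was [Glc 15 mM/Pyr (+)]. Scaled to the spike-in controls, this order did not hold for Atf5 and Cebpb. For Atf5, [Glc 15 mM/Pyr (−)] minus [Glc 5 mM/Pyr (−)] was then -0.07. For both genes [Glc 5 mM/Pyr (+)] then lay above [Glc 5 mM/Pyr (−)]. The share of all genes with the same order was not taken. The step from the second to the third array exceeded error for 5 members, Atf4, Atf3, Ddit3, Chac1 and Sesn2. It did so for Atf4 alone when scaled to the spike-in controls. The lowest 2 arrays did not differ beyond error for any member, although scaling to the spike-in controls set the Pyr (+) arrays apart for Ddit3 and Chac1. The difference between the pyruvate differences at 15 and 5 mM glucose had a median of 0.49, against 0.06 over all genes. It was greatest for Ppp1r15a, 0.71 ± 0.29, and Ddit4, 0.67 ± 0.29, and these and Atf4, 0.47 ± 0.20, were the 3 members beyond error. By its brighter probe alone Atf4 gave 0.37, which is within 2 of the errors of 0.29 that members with 1 probe had. Scaled to the spike-in controls, Atf3 (0.64), Ddit3 (0.66) and Chac1 (0.69) also exceeded 2 errors. The share of all genes beyond error was not taken for this count. For Sesn2 the difference between the pyruvate differences was 0.12 ± 0.29 and for Atf5 -0.03 ± 0.29.

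The comparison of 15 mM with 5 mM glucose uses the same 4 arrays and is given beside the pyruvate differences for that reason only. With pyruvate present, 0 members were 1.5-fold higher at 15 mM glucose, against 2.07% of genes, and 0 were 2-fold higher, against 1.30%. Their median was 0.12, none differed beyond error except Ddit3 (-0.49) and Chac1 (-0.42) when scaled to the spike-in controls, and the values ran from -0.12 for Ddit3 to 0.24 for Ddit4. That median turned to -0.25 under that scaling, which moved the median of all genes to -0.40, so its direction is not settled. Without pyruvate, the median was 0.50 and 4 members were 1.5-fold higher at 15 mM glucose, Ddit4 (0.91), Ppp1r15a (0.78), Atf4 (0.64) and Atf3 (0.59), against 5.08% of genes. The count was 2, Ddit4 and Ppp1r15a, with quantile normalization or cyclic loess, and 1, Ddit4, with spike-in scaling. None reached 2-fold, against 2.87% of genes. Scaled to the spike-ins, this median was 0.28.

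Spike-in scaling is a shift of each whole array, and it changed the pyruvate medians of the members to 0.25 at 5 mM and 0.94 at 15 mM glucose, with all genes at -0.22 and -0.02. Relative to the median of all genes, the members stood 0.47 and 0.96 higher under either scaling. At 5 mM glucose, Atf5 and Cebpb changed sign under it, to -0.04 and -0.03.

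Fold changes on these arrays depended on signal, and dim genes supplied most of the 2-fold differences. The 24752 genes were divided by mean level into 3 equal groups, and all 10 members were in the brightest. Among its 8251 genes, 0.133% were at least 2-fold higher without pyruvate at 15 mM glucose, which is 11 genes, and 5 of them were members. The other 6 were Fos, Klf2, Gadd45a, Snhg1, Gm13272 and Rnu3b1, which were named after their values were seen. At 1.5-fold the share was 0.497% at 15 mM and 0.0242% at 5 mM glucose. Ranked by the difference at 15 mM glucose within this group, Ddit3 was at place 5, Ppp1r15a at 6, Ddit4 at 8, Chac1 at 9, Atf3 at 11 and Atf4 at 12. Trib3 was at 25, Sesn2 at 29, Cebpb at 93 and Atf5 at 1984. Ranked at 5 mM glucose, the order of the members was another one, with Sesn2 at place 3, Ddit3 at 4, Atf4 at 7, Atf3 at 9 and Chac1 at 10, and with Ddit4 at 27 and Ppp1r15a at 35. These places describe the contrast that was known when the genes were chosen.

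**Figure D3:**
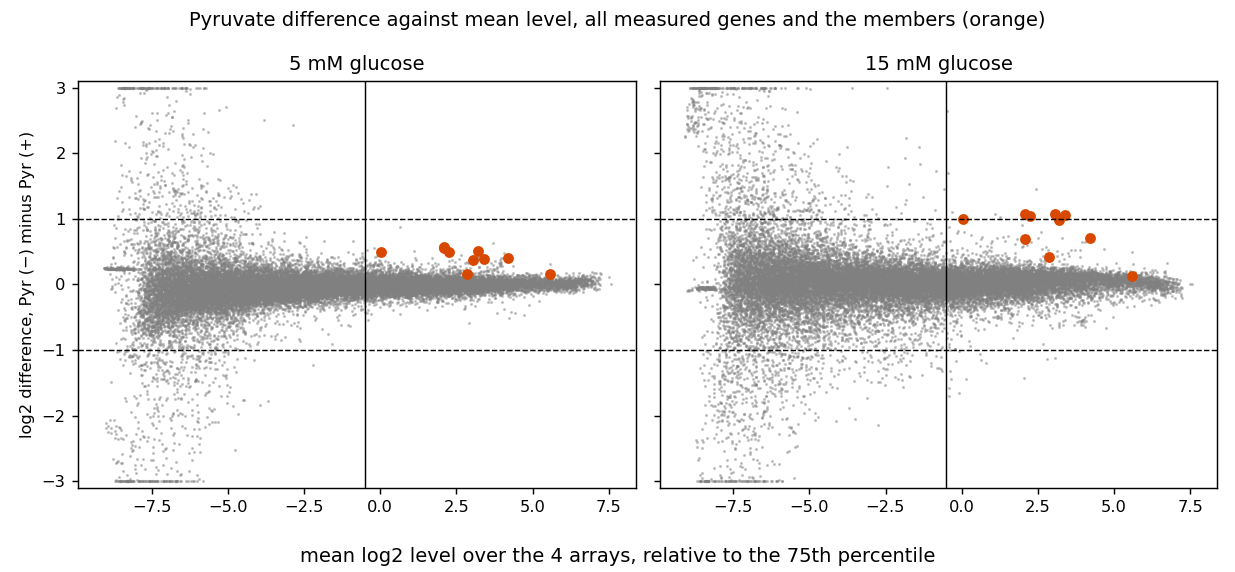
Log2 difference Pyr (−) minus Pyr (+) of the 24752 measured genes (grey, values beyond 3 drawn at 3) and the 10 members (orange) against mean log2 level over the 4 arrays, at 5 mM (left) and 15 mM glucose (right). Genes right of the vertical line are the brightest of 3 equal groups and the dashed lines mark 2-fold, and the members lie at or above the upper edge of the bright genes except Atf5 and Cebpb.

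The amino acid genes of the ATF4 response, which encode enzymes of serine, asparagine, proline and cysteine synthesis, amino acid carriers and tRNA synthetases, were set beside the stress arm. All 32 were measured. At both glucose concentrations 0 of 32 were 1.5-fold higher or lower without pyruvate, where 5.49% of all genes were 1.5-fold lower at 15 mM and 4.03% at 5 mM glucose. Many of the 32 were bright, however. In the brightest group of genes 0.497% were 1.5-fold higher at 15 mM and 0.0242% at 5 mM glucose. The count of 0 is near these shares and is not read as a result about the list. Their median log2 differences were 0.01 and 0.03, with a range of -0.14 to 0.15 at 5 mM and of -0.22 to 0.42 at 15 mM glucose. The highest at 15 mM glucose were Slc3a2, the heavy chain of several amino acid carriers, at 0.42, and Slc38a2, a sodium-coupled neutral amino acid carrier, at 0.40. The lowest were the cystine carrier Slc7a11 at -0.22 and the cationic amino acid carrier Slc7a1 at -0.15. The highest value of this list at 15 mM glucose was thus about level with that of Cebpb.

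Of 20 other genes listed as ATF4 targets, 19 were measured and Fgf21 was not well above background. Their median differences were 0.07 and 0.24, and at 15 mM glucose 4 were 1.5-fold higher and 0 were lower. Gadd45a, a growth arrest gene, had intensities of 2721, 3754, 2809 and 6036 and differed by 0.50 at 5 mM and 1.07 at 15 mM glucose, values close to those of Atf3. Gdf15, a secreted stress signal, differed by 0.61 and 1.32 at dim intensities of 92.0, 137, 95.2 and 243. The others of the 4 were Herpud1 at 0.63 and Nfil3 at 0.60, named after their values were seen. The lowest were Sqstm1 at -0.20 and Arhgef2 at -0.06.

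The genes upstream of ATF4 are the eIF2 kinases, subunits of eIF2 and eIF2B, and phosphatase 1 partners. Their medians were 0.00 at both glucose concentrations. At either, 0 of 20 passed 1.5-fold, a count that is likewise not read as a result. The eIF2 kinase Eif2ak4 (GCN2) stood at -0.26 and its inhibitor Impact at -0.24 at 15 mM glucose, where the 2 probes of Impact gave -0.06 and -0.41, and the highest were Nck1 at 0.21 and Eif2b1 at 0.18. Transcript levels of a kinase do not report its activity. Of 20 genes of the ATF6 and IRE1 branches of the unfolded protein response, 19 were measured and Derl3 was not. Their medians were -0.0048 and 0.05, and 1 was 1.5-fold higher at 15 mM glucose, Dnajb11, which had a probe below the background limit on some arrays and was named after its value was seen. The highest well measured were the IRE1 target Dnajb9 at 0.56 and Xbp1 at 0.32, and the lowest the chaperone Hyou1 at -0.29 and Atf6 at -0.19.

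**Figure D4:**
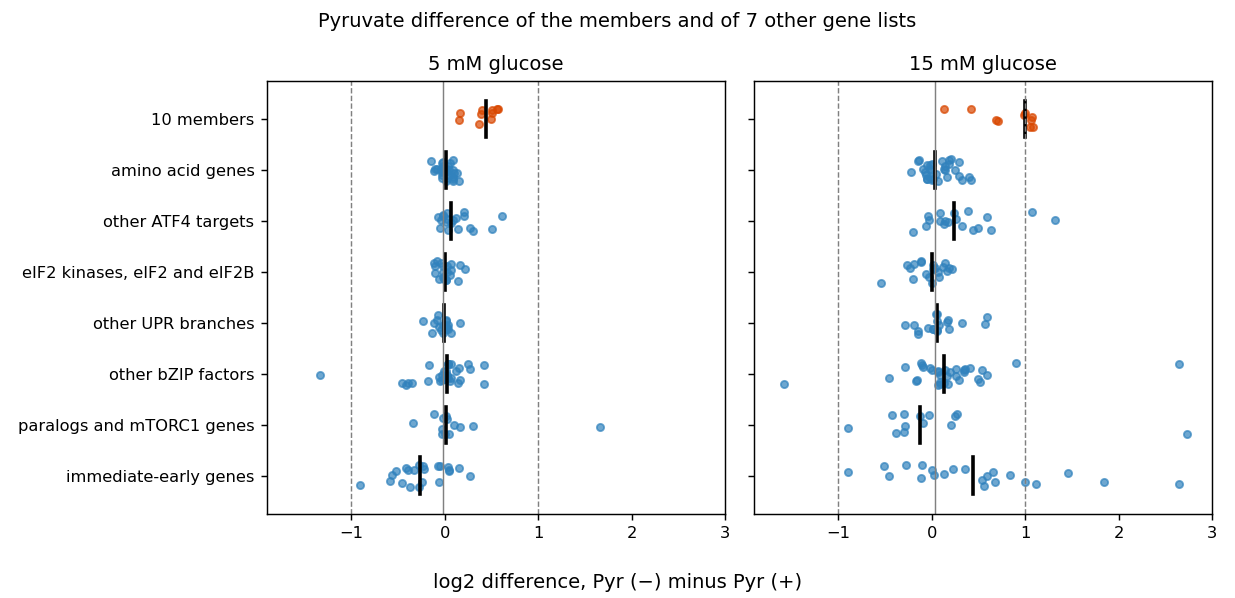
Log2 difference Pyr (−) minus Pyr (+) of each measured gene (points) with the list median (black bar) for the 10 members and the 7 other lists, at 5 mM (left) and 15 mM glucose (right). The thin line is the median of all genes and the dashed lines mark 2-fold in each direction, and the amino acid and eIF2 lists are centred near 0 in both panels while the members' medians are 0.44 and 0.99.

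Other bZIP factors, possible partners of the members, had medians of 0.02 and 0.13 over 34 of 35 genes, since Cebpe was not measured. At 15 mM glucose 3 were 1.5-fold higher. Fos, a partner in AP-1, had a pyruvate difference of -0.41 at 5 mM and of 2.65 at 15 mM glucose, with intensities of 1071, 783, 623 and 3985. Only its [Glc 15 mM/Pyr (−)] array stood high. Cebpd, the paralog of Cebpb, differed by 0.02 and 0.90. The lowest were Fosl2 at -0.46 and Atf7 at -0.29. The remaining gene 1.5-fold higher was Nfil3, which also belongs to the list of other targets and was named after its value was seen.

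The paralogs of the members and genes of the mTORC1 pathway, 13 measured of 15 listed names, had medians of 0.01 and -0.13. The names Castor1 and Castor2 were not among the measured ones, but these genes were measured under their older names, Gatsl3 and Gatsl2, which are also in the list. Sesn1, the p53-linked sestrin, differed by 0.04 and 0.25 and Sesn3 by 0.16 and -0.03, against 0.57 and 0.69 for Sesn2. Trib1 differed by -0.34 and -0.39, against 0.40 and 0.70 for Trib3, and the 1 probe of Trib2 that was well above background on all arrays by 0.01 and -0.12. Chac2, which degrades glutathione as Chac1 does, differed by -0.03 and 0.26. Ddit4l, the paralog of Ddit4, was well above background only in [Glc 15 mM/Pyr (−)], with an intensity of 17.9, where it was at least 1.67-fold higher than with pyruvate. That bound was set against the lowest signal well above background on the array it was compared with. The lowest gene of this list was Rptor, the mTORC1 scaffold, at -0.90 at 15 mM glucose, the mean of 2 probes that disagreed, with -0.29 and -1.51.

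Immediate-early genes, which answer growth factor and stress kinase signals within minutes, were 23 genes, of which 22 were measured. Their median was -0.26 at 5 mM and 0.44 at 15 mM glucose. At 15 mM glucose 9 were 1.5-fold higher and 1 was lower, and at 5 mM 0 were higher and 1 was lower. The highest were Fos, given above, and the MAP kinase phosphatase Dusp1, at 0.04 and 1.84. The lowest were Ctgf at -0.90 and -0.90 and Klf10 at -0.33 and -0.51. 

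The 5 genes whose profile over the 4 arrays was nearest to the members' median profile, by Euclidean distance of centred log2 levels among 6633 genes of similar level, were Snhg12, Rnu2-10, Tsc22d3, Snhg1 and NAP111930-1. Their distances ran from 0.066 for Snhg12 to 0.162 for NAP111930-1, against 0.099 for Atf3, the nearest member, and 0.600 for Atf5, the farthest. Snhg12, a noncoding host of small nucleolar RNAs, had intensities of 8299, 10524, 8248 and 14735 and differed by 0.38 at 5 mM and 0.81 at 15 mM glucose. Snhg1, another such host, differed by 0.27 and 1.02. Rnu2-10, named for the spliceosomal U2 RNA, differed by 0.46 and 0.80, and Tsc22d3, a glucocorticoid-induced leucine zipper gene, by 0.38 and 0.71. Likeness over 4 arrays is a description and says nothing of shared control.

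Markers were read to check the label of the cells. All 14 Schwann cell markers had a probe well above background on at least 1 array, and Sox10, S100b, Ngfr, Pmp22, Foxd3 and Sox2 gave intensities from 2431 to 18042, while Erbb3 was dim, with 15.6 to 22.2. Of 16 markers of other cell types 13 were measured, with mean intensities from 4.77 to 9340. Cdh5 and Epcam were not well above background, and the name Emr1 was not among the measured genes. Medians of the Schwann markers were 0.05 and -0.02 and those of the other markers -0.09 and -0.11 without pyruvate at 5 and 15 mM glucose. In the second list 2 were 1.5-fold higher at 15 mM glucose, the lysosomal macrophage marker Cd68 at 0.88 and the dim neuronal marker Rbfox3 at 1.06. Their part in the members' differences was not tested. Fewer cells and less RNA per cell cannot be told apart on such arrays.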

How the data were processed

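IMS32 cells were measured on 1 one-colour Agilent array per condition. RNA was labelled with Cy3. Feature Extraction 11.5.1.1 gave the background-corrected intensity of each spot, which the authors deposited unscaled. They also deposited a table of the ratio of each intensity to 1 constant per array, which held for all 44397 features within a tolerance of 1e-06. GeneSpring GX is named without settings.

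Control spots and spots with outlier flags were left out. Spots of a probe were averaged, intensities were divided by the 75th percentile of the array and put on the log2 scale, and a gene is the mean of its probes that 1 or more arrays showed well above background. Arrays were compared for pyruvate within each glucose concentration and for glucose within each pyruvate condition, with thresholds of 2-fold and 1.5-fold. With 1 array per condition no test was made, and the number of arrays limits the precision. A gap between arrays was called beyond error at more than 2 of the software's combined errors.

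The members and the gene lists were chosen with earlier results of these data known. Genes named are the 10 members, in each other list the 2 highest and 2 lowest by the pyruvate difference at 15 mM glucose among genes well above background on all 4 arrays, the paralogs of the members, and the 5 genes of nearest profile. Fos stands in 2 lists. The array design gave the gene names. Some listed genes are not reported here by name but stay in the medians and counts. Promoters and the Ddit3 probe were read from the RefSeq table of GRCm38.p6 and from the array files. Alternatives were another set of probes for the 75th percentile, quantile normalization, cyclic loess, scaling to 8 spike-in probes, normexp with an offset of 50, the deposited ratio, the brightest probe of a gene, filters on dim probes and the 1.5-fold threshold. The tools were pandas 2.3.3 and numpy 2.4.6 in Python 3.11.15, and limma 3.58.1 in R 4.3.3, and the calculations were tested on simulated data.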

Additional observations from a re-analysis of the deposited data

Results flagged for a closer look

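Ddit3 at 15 mM minus Ddit3 at 5 mM glucose gave -0.12 on the Pyr (+) arrays and 0.40 on the Pyr (−) arrays, so the signs were opposite and the values lay 0.52 apart on the log2 scale. Both values and the gap between them were within 2 errors, and the gap was not tested. Scaled to the spike-ins, the pair became -0.49, which exceeded 2 errors, and 0.17, which did not. The gap was then 0.66, also beyond 2 errors.

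The median pyruvate difference of the 22 immediate-early genes was -0.26 at 5 mM glucose and 0.44 at 15 mM, 0.70 apart and of opposite sign, which was not tested either. Each value compares 1 array with 1 array.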

How the results depend on the processing

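Across 10 alternative settings, 661 values were recalculated, of which 602 stayed within the spread of 0.10 on the log2 scale or within 1.5 times a count and 59 moved. In 28 the sign changed, none of them a value that had passed 2-fold. Member differences at 15 mM glucose were above 0 in all 90 recalculated values. At 5 mM they were in 88 of 90, the exceptions being Atf5 and Cebpb with spike-in scaling. Part of these values was fixed in advance. Filters on dim probes could not change a member, since every member probe was well above background on each array. Taking the brightest probe could change only Atf4. The members' median ranged from 0.25 to 0.45 at 5 mM, from 0.94 to 0.99 at 15 mM, from -0.25 to 0.13 for glucose on the Pyr (+) arrays and from 0.28 to 0.50 on the Pyr (−) arrays. Spike-in scaling moved the members' medians to 0.25 for pyruvate at 5 mM, -0.25 for glucose on the Pyr (+) arrays and 0.28 on the Pyr (−) arrays, and the difference between the pyruvate differences to 0.63. It moved the medians at 5 mM glucose of the lists to -0.18 (amino acid genes), -0.13 (other targets), -0.19 (upstream genes), -0.20 (other branches), -0.17 (other bZIP factors), -0.18 (paralogs and mTORC1 genes) and -0.45 (immediate-early genes). The shift follows from the scaling, which moves every gene of an array by the same amount.

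At 15 mM glucose the 2-fold count of members was 5, 3 with spike-in scaling and 8 at the 1.5-fold threshold, and for glucose on the Pyr (−) arrays 4 members passed 1.5-fold, 2 with quantile normalization or cyclic loess and 1 with spike-in scaling. Atf3 was below 2-fold in 6 settings, down to 0.95, and Chac1 in 1, at 0.99. The cause was not tested. No paired analysis was possible because each condition has 1 array. No replicate could be left out for the same reason. The error within arrays, 0.20 on the log2 scale, limits what can be read from the members at 5 mM glucose, where 5 of 10 differences were beyond 2 errors and 1, that of Atf4, with spike-in scaling. At 15 mM glucose 9 were, and 8 with quantile normalization, cyclic loess or spike-in scaling, which put Cebpb within error. The share of all genes beyond 2 errors was not taken.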

Other observations

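Since 2 noncoding hosts of small nucleolar RNAs, Snhg1 and Snhg12, were among the genes nearest to the members, the host genes of this naming and Gas5 were read as well, a list made after those values were seen. Of 20 names 11 were measured. Their median pyruvate difference was 0.01 at 5 mM and 0.33 at 15 mM glucose, where the medians of all genes were -0.02 and 0.03. At 15 mM 11 of 11 were above 0, and the share of all genes was not taken for this count. There 4 were 1.5-fold higher, against 6.22% of all genes. They were Snhg1 (1.02), Snhg9 (0.94, at dim intensities from 14.4 to 28.2), Snhg12 (0.81) and Snhg5 (0.72). Of these, Snhg1 and Snhg12 had prompted the list, so their place in the counts was known in advance. Gas5, a host named for growth arrest, differed by -0.06 and 0.11. At 5 mM glucose 0 were 1.5-fold higher, against 2.90% of all genes, and Snhg12 (0.38) and Snhg1 (0.27) had the highest values.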
